A study of Mus musculus with 2 samples.

Results

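Histones are the proteins around which DNA is wound, and 16 of the 15046 genes counted in cultured adult mouse neural stem/progenitor cells (NSPCs) were histone genes by their symbols. They were taken as every gene whose symbol began with Hist1 to Hist4, H2af, H3f or H1f, without pseudogene names holding "-ps". Of the 16, 7 began with Hist and form the replication-dependent class of that rule, and 9 began with H3f or H1f and form its variant class. No counted symbol began with H2af. The 5 genes *H1f1* to *H1f5* of the variant class carry older symbols of the Hist1h1 series in RefSeq and belong to the replication-dependent histone cluster. They are therefore given apart from *H3f3a*, *H3f3b*, *H1f0* and *H1f10*, which are expressed independently of replication. A further 35 counted histone genes have newer symbols that the rule does not match, such as *H2az1* and *H2ac8*, and are used here for comparison.

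The cells came from 1 line of proliferating NSPCs from the subventricular zone (SVZ) of male C57/Bl6 mice 6 to 8 weeks old. A retrovirus had brought the PLIN2-GFP construct into the line, so low and high cells shared the transgene, and all were grown with EGF and FGF-2, with no treatment named. PLIN2 coats lipid droplets, and cells with the 25% lowest (low PLIN2-GFP) and the 25% highest GFP signal (high PLIN2-GFP) were sorted into 384-well plates for SORT-seq, a plate-based single-cell method. Plate 1 held 95 low and 84 high cells and plate 2 held 72 low and 53 high cells. The 2 plates were the replicates, both of 1 line. The fits left 1 residual degree of freedom for the categories and 2 for the phases. Their p-values therefore rest largely on a spread borrowed from all tested genes, and little on how far the plates differed for a single gene. Low and high cells lay in different well rows on both plates, and a row effect cannot be told apart from the category. The cells held 1170 to 34630 unique molecular identifiers (UMIs, tags that count molecules), with a median of 10774. The 16 genes together took 0.45% of them. Of the NSPC markers *Fabp7*, *Vim*, *Nes*, *Hes1* and *Sox2*, all 5 were counted, with a summed level of 6365 to 6666 CPM (counts scaled to the depth of a sum of cells) in the 4 sums of plate and category. *Olig1* and *Olig2* were also high, *Gfap* was at 0 in 3 of the 4 sums, and none of the 4 microglial markers had a row.

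Histone mRNAs fall into 2 kinds by how they end. Replication-dependent genes, which lie in clusters, are transcribed when DNA is copied, and their mRNA ends shortly after a conserved stem-loop bound by SLBP instead of in a poly(A) tail. Replication-independent genes such as *H3f3a* and *H3f3b* make ordinary polyadenylated mRNA in and out of S phase, and their proteins fill nucleosomes outside replication. Reverse transcription in SORT-seq starts from oligo(dT) primers, so the sequence at the mRNA end bears on what is counted.

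The ends of the annotated transcripts are shown first because they separate the members. All 16 symbols were matched to GENCODE M21 on GRCm38. The stem-loop was found in an annotated transcript of *Hist1h2ap*, *Hist1h2ao*, *Hist1h2bp*, *H1f2*, *H1f3* and *H1f4*. For the following 5 genes the stem-loop is in capitals and the 14 bases before it are in lower case.
Hist1h2ap: agaaaaaaaaaaaaGGCTCTTTTCAGAGCC
Hist1h2ao: agaaaaaaaaaaaaGGCTCTTTTCAGAGCC
H2ac8: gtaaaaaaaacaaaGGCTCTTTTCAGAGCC
H1f4: cccaacaacccaaaGGCTCTTTTCAGAGCC
H1f2: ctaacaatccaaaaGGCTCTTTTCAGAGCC
These lie on the minus strand at chr13:21833029-21833058 (*Hist1h2ap*), the plus strand at chr13:21810884-21810913 (*Hist1h2ao*), the minus strand at chr13:23570668-23570697 (*H2ac8*, outside the rule), the minus strand at chr13:23621782-23621811 (*H1f4*) and the plus strand at chr13:23739498-23739527 (*H1f2*). The loop sequence was the same in all 5, and what differed was the stretch before it. *Hist1h2ap* and *Hist1h2ao* had an unbroken run of 12 A directly 5′ of the stem-loop, and *H2ac8* had a run of 8 that ends before a C. The 4 replication-independent members had no stem-loop, and each had a poly(A) signal in the last 100 bases of an annotated transcript, in capitals here.
H3f3a: aatttgaaaaatAATAAAagtaccaataga
H3f3b: ataggccttacaAATAAActagtaagtttg
H1f0: ttaaaactttaaAATAAAactggaaaggaa
H1f10: ttcctggggcgcAATAAAcggttccaacct
These are at chr1:180800836-180800865, chr11:116021987-116022016 and chr6:87980424-87980453 on the minus strand for *H3f3a*, *H3f3b* and *H1f10*, and at chr15:79030471-79030500 on the plus strand for *H1f0*. The transcript of *H1f2* held both kinds of end, with the stem-loop 840 bases before its annotated end and a poly(A) signal within the last 100 bases.

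Among all 87 annotated mouse genes with symbols of the rule, 43 had the stem-loop in an annotated transcript. Of these, 3 had a run of at least 8 A in the 20 bases before it: *Hist1h2ap*, *Hist1h2ao* and *H2ac8*. A gene whose annotated transcript ends before its stem-loop counts as having none, so both counts are minima. No stem-loop was found in this way for *H1f1* and *H1f5*, which belong to the cluster. In the other stem-loop genes the longest run was 7. Of the 43, 26 had a row in the count table. Over all cells *Hist1h2ap* had 3966 UMIs and *Hist1h2ao* had 2938, whereas the other counted stem-loop genes ranged from 1.5 UMIs (*H3c14*) to 931 (*H2ax*). The 2 genes with the longest A run thus had the most UMIs, and *H2ac8* with 97.3 UMIs lay inside the range of the others. The part of the A run in these counts was not tested.

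**Figure D1:**
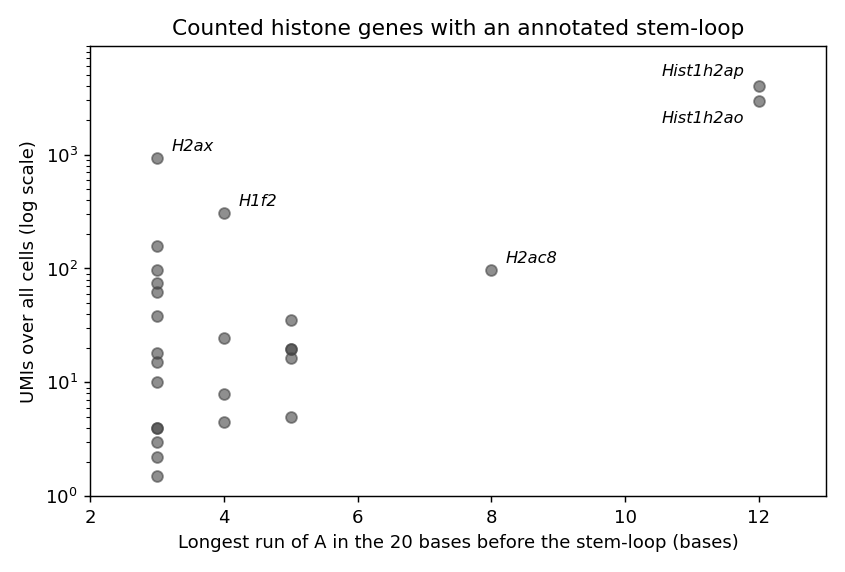
Each of the 26 points is a counted histone gene with an annotated stem-loop. The x axis is the longest run of A, in bases, in the 20 bases before the stem-loop and the y axis is its UMIs over all cells on a log scale. *Hist1h2ap* and *Hist1h2ao* sit alone at a run of 12, at 3966 and 2938 UMIs.

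*Hist1h2ap* and *Hist1h2ao*, which encode H2A core histones, held 99.7% of the UMIs of the 7 Hist genes. The other 5 had 23.2 UMIs together: *Hist1h2al* 9.2, *Hist1h2an* 5.5, *Hist1h2br* 3.7, *Hist1h2bq* 2.7 and *Hist1h2bp* 2.2. *Hist1h2al* is a processed pseudogene in M21. None of these 5 passed the filter on low counts, so the Hist class is in effect the 2 H2A genes. Both lie head to head with an H2B gene on chromosome 13. *Hist1h2ap* (chr13:21833026-21833507, minus strand) faces *Hist1h2br*, and *Hist1h2ao* (chr13:21810465-21810944, plus strand) faces *Hist1h2bq*. Across these divergent promoters the H2A genes had 3966 and 2938 UMIs and the H2B genes 3.7 and 2.7. Counting starts at the mRNA end and near copies share reads, so these counts do not compare transcription between the 2 sides.

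The 2 H2A genes are nearly the same in sequence, and most of their counts were split evenly between them. Of the 60-base words of the *Hist1h2ap* transcript, 92.9% also occur in *Hist1h2ao*, and of those of *Hist1h2ao* 93.3% occur in *Hist1h2ap*, with 60 bases being the length of the authors' reads. In all but 9 of the cells that had a count of either, their values were equal. In those 9 cells *Hist1h2ap* was higher, and whether this separates the genes or comes from how shared reads were allotted was not tested. They made up the whole surplus of 1028 UMIs of *Hist1h2ap*. Of the 9, 7 were high and 2 were low PLIN2-GFP cells, and 8 were in S or G2/M. Results are therefore given for the sum of both genes as well, and their separate results are not independent.

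Other members also share sequence. *Hist1h2bq* and *Hist1h2br* are near copies of each other. The last 300 bases of *H1f4* all occur in other transcripts too, among them *Hist1h2be*, which overlaps it on the same strand. *H3f3a* shares sequence with *H3f3c* and processed copies, and 52.2% of its values above 0 were not whole numbers (within 0.001), against 84.4% for *Hist1h2ap* and *Hist1h2ao* and 0% for *H3f3b*, *H1f0* and *H1f10*. *H3f3a* and *H1f4* are accordingly uncertain, while *H3f3b*, *H1f0* and *H1f10* rest on whole UMIs.

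The phase comparison asked how each class moved through the cell cycle, using the phase the authors gave each cell. The lists of S and G2/M genes in Seurat, from which such scores are made, hold none of the 16 members. The G1, S and G2/M sums held 81, 41 and 57 cells of plate 1 and 51, 36 and 38 cells of plate 2. Of the 16 members, 8 passed the filter and were tested among 7650 genes. Against G1, 5 were higher and 1 was lower in S at an adjusted p under 0.1, beside 7.56% of all tested genes higher and 5.19% lower. In G2/M 6 were higher than in G1 and 0 were lower, beside 9.01% and 7.4% of all genes. Between G2/M and S, 2 were higher and 2 were lower in G2/M, beside 2.76% and 2.09%. A gene that is near 0 in G1 had to be high in another phase to pass the filter. Adjusted p-values here are from the edgeR quasi-likelihood test with Benjamini-Hochberg adjustment over all tested genes.

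*Hist1h2ap* and *Hist1h2ao* had their highest summed levels in S phase, and the sums of cells labelled G2/M were also high. Their summed level went from 282.6 CPM in G1 to 3531 CPM in S and 2240 CPM in G2/M on plate 1, and 274.5, 3783 and 2825 CPM on plate 2. Phases did not overlap between plates: every S value was above every G2/M value, and every G2/M value was far above G1. S exceeded G1 by 12.5-fold on plate 1 and 13.8-fold on plate 2. With both genes added up into 1 row, the log2 fold change was 3.70 ± 0.10 (SE) for S against G1 (adjusted p = 5.25e-22), 3.16 ± 0.10 for G2/M against G1 (adjusted p = 4.79e-20) and -0.54 ± 0.08 for G2/M against S (adjusted p = 2.16e-05). Taken apart, *Hist1h2ap* gave 3.90 ± 0.12 and *Hist1h2ao* 3.45 ± 0.12 for S against G1. The lower level in G2/M than in S held for *Hist1h2ap* in 13 of 14 alternative fits and did not pass without the plate block (adjusted p = 0.102).

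**Figure D2:**
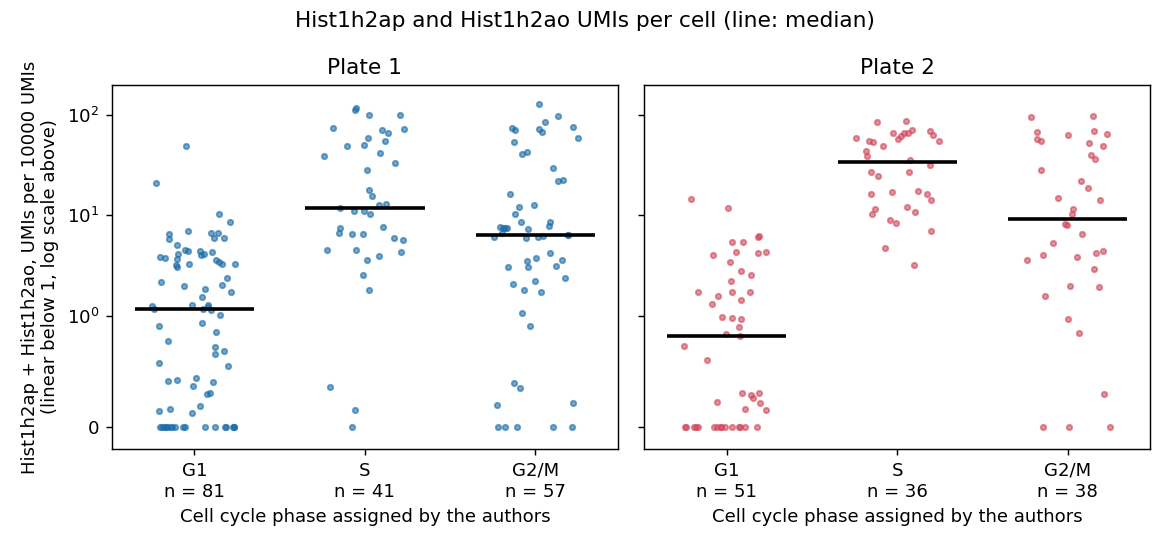
UMIs of *Hist1h2ap* and *Hist1h2ao* per 10000 UMIs of a cell (y axis, linear below 1 and log above), by phase (x axis) and plate; each point is a cell and the line is the median. The median is lowest in G1 on both plates (1.16 and 0.82) and highest in S (11.8 and 33.9), and the highest cells reach 128.2 and 97.8.

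Cells of a phase differed widely in these 2 genes. Per 10000 UMIs of a cell, G1, S and G2/M cells had medians of 1.16, 11.8 and 6.42 on plate 1, and of 0.82, 33.9 and 9.29 on plate 2. The highest cell of each plate had 128.2 and 97.8, and both were in G2/M. In G2/M on plate 1 the 5 highest of 57 cells held 45.1% of the UMIs of the 2 genes, and in G1 on plate 2 the 5 highest of 51 held 51.8%. At least 1 UMI was present in 55.6% of G1 cells (95% exact binomial interval 44.1 to 66.6), 90.2% of S cells (76.9 to 97.3) and 80.7% of G2/M cells (68.1 to 90) on plate 1. Among cells of plate 2 these were 49% (34.8 to 63.4), 100.0% (90.3 to 100.0) and 84.2% (68.7 to 94). These intervals cover counting error only. S cells were also deeper, with a median of 10994 UMIs against 8290 in G1 on plate 1 and 15301 against 9825 on plate 2. With each cell thinned to 5000 UMIs, G1, S and G2/M had shares of 51.5%, 94.1% and 82.2% on plate 1, and of 44.4%, 100.0% and 82.4% on plate 2. Shallower cells left out by this were 23 low and 11 high cells of plate 1 and 8 low and 3 high cells of plate 2. A share of G1 cells near 50% thus remained at equal depth. Across the cells of plates 1 and 2, the level had a Spearman correlation of 0.60 and 0.71 with the S score and of 0.38 and 0.37 with the G2/M score, and of 0.26 and 0.49 with the UMI total that all these measures share.

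The linker histones of the cluster did not move as 1 group. *H1f4*, a linker histone gene with 75 UMIs in all, was higher outside G1, at 4.12, 24.2 and 28.9 CPM in G1, S and G2/M on plate 1 and 6.14, 39.5 and 35.4 CPM on plate 2. Its log2 fold change was 2.60 ± 0.54 for S (adjusted p = 0.00166) and 2.61 ± 0.53 for G2/M (adjusted p = 0.000903). Being near the floor in G1, *H1f4* passed the filter only through its S and G2/M sums, so these tests are not independent of the filter. The summed level of *H1f2* was lower in S than in G1, at 61.6 against 100.2 CPM on plate 1 and 65.2 against 110.6 CPM on plate 2 (log2 fold change -0.70 ± 0.25, adjusted p = 0.0805). The cells did not follow the sums on plate 2, where 61.1% of S and 33.3% of G1 cells had a UMI of *H1f2* (31.4% and 26.7% at 5000 UMIs) and the 5 highest of 51 G1 cells held 64.8% of its G1 UMIs. In G2/M *H1f2* was above G1 on plate 1 (124.1 CPM) and below it on plate 2 (74.7 CPM), with an adjusted p of 0.924. The call in S was made in 7 of 14 alternative fits, with adjusted p-values from 0.0243 to 0.847. *H1f5* had 0 UMIs in the 81 and 51 cells in G1, and 7 and 13 UMIs in S and 4 and 5 in G2/M on plates 1 and 2. Against a floor of 3 counts over the G1 cells of the plate, its observed level in S was 3.89-fold and 3.90-fold higher. The counting error of the few S UMIs is not part of these values. *H1f5* did not pass the filter. *H1f3* with 24.7 UMIs and *H1f1* with 5.0 were too sparse for a comparison.

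The replication-independent members had their highest levels in G2/M or did not differ detectably between phases. *H3f3b*, one of the genes for the replication-independent H3, had 698, 1001 and 1132 CPM in G1, S and G2/M on plate 1 and 846, 938 and 1287 CPM on plate 2. It was higher than in G1 in S (log2 fold change 0.33 ± 0.10, adjusted p = 0.0297) and in G2/M (0.65 ± 0.10, adjusted p = 1.19e-05), and higher in G2/M than in S (0.32 ± 0.10, adjusted p = 0.0633). *H3f3a*, the gene that encodes the same protein, had 1200, 1166 and 1188 CPM on plate 1 and 1442, 1143 and 1215 CPM on plate 2. Its order was G1, G2/M, S on both plates, from high to low, but none of its 3 comparisons passed, with log2 fold changes of -0.19 ± 0.09 for S and -0.13 ± 0.09 for G2/M against G1 (adjusted p = 0.207 and 0.413). G1 was thus the highest phase of *H3f3a* and the lowest of *H3f3b* on both plates. The call of *H3f3b* in S against G1 was made in 10 of 14 alternative fits.

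*H1f0*, a linker histone known from cells that leave the cycle, had 113.9, 147.4 and 220.9 CPM in G1, S and G2/M on plate 1 and 86, 144.1 and 196.6 CPM on plate 2. It rose in G2/M (log2 fold change 1.05 ± 0.18, adjusted p = 8.26e-05) and in S (0.54 ± 0.19, adjusted p = 0.0801). *H1f10*, a further linker histone outside the cluster, had 48, 79.2 and 124.1 CPM on plate 1 and 38.9, 49.8 and 96.3 CPM on plate 2. It was higher in G2/M than in G1 (1.35 ± 0.24, adjusted p = 0.000202) and than in S (0.79 ± 0.23, adjusted p = 0.0602), and did not pass between S and G1 (adjusted p = 0.227). Both thus had the order G1, S, G2/M in the sums of both plates, unlike *Hist1h2ap* and *Hist1h2ao*, whose top was S. For *H1f0*, G2/M against S did not pass (0.51 ± 0.17, adjusted p = 0.110). In high cells of plate 1 *H1f0* had 215.9 CPM in S and 188.6 CPM in G2/M. In low cells of plate 1 it had 52.3 CPM in S and 124.1 CPM in G1. Both categories of plate 2 kept the order. The G2/M calls of *H3f3b*, *H1f0* and *H1f10* against G1 were made in all 14 alternative fits, and the S call of *H1f0* in 8 of 14. The calls in G2/M against S were made in 10 of 14 for *H3f3b* and 8 of 14 for *H1f10*, and *H1f0* was called there in 1 of 14.

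**Figure D3:**
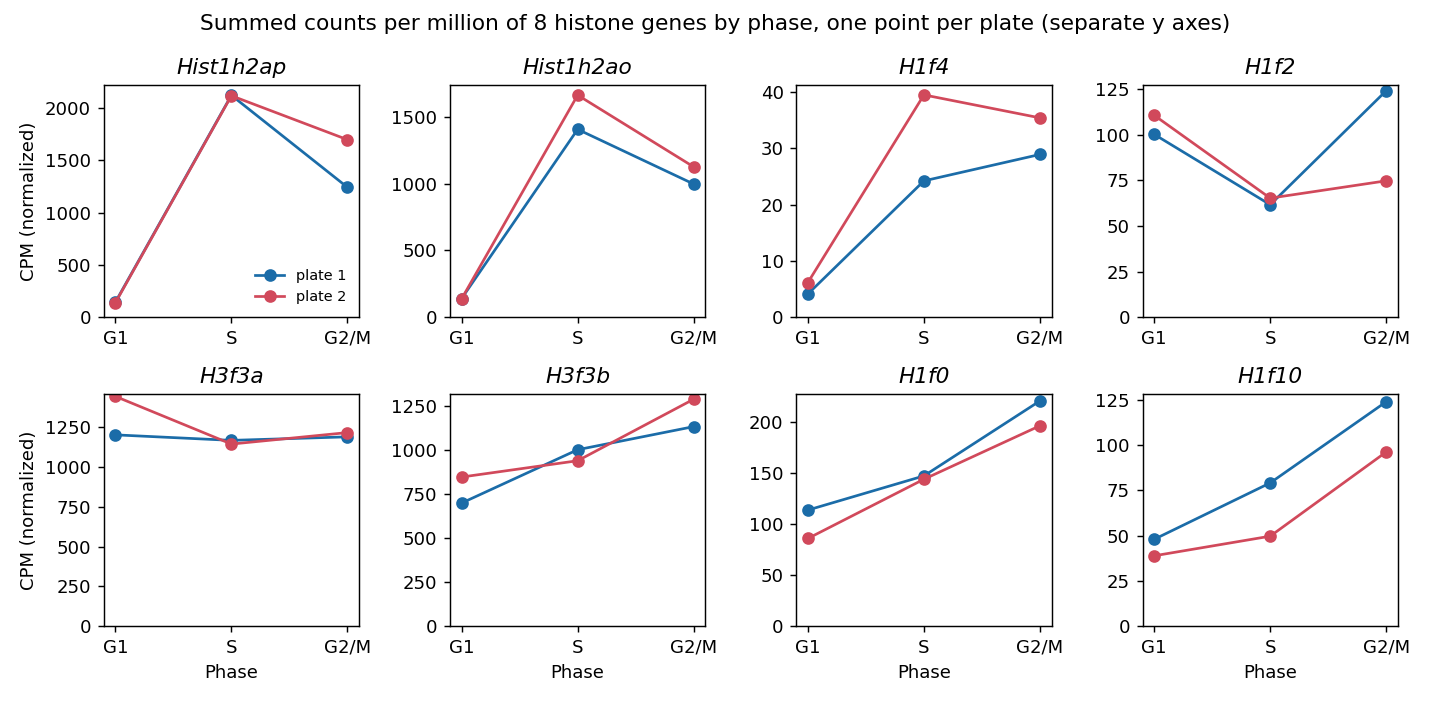
Normalized CPM (y axes, each from 0 and separate) of the 8 tested members in G1, S and G2/M (x axes), with 1 point per plate. *Hist1h2ap* and *Hist1h2ao* peak in S on both plates, *H3f3b*, *H1f0* and *H1f10* peak in G2/M on both, and *H3f3a* lies between 1143 and 1442 CPM throughout.

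The ratio of the classes followed these levels. Summed over the 7 Hist genes the level was 272.3, 3487 and 2196 CPM of all UMIs in G1, S and G2/M on plate 1, and 3792 and 2728 CPM in S and G2/M on plate 2. The 9 variant genes of the rule had 2056, 2475 and 2769 CPM and 2364, 2416 and 2817 CPM. Hist genes had 0.132, 1.41 and 0.793 UMIs for each variant UMI in these phases on plate 1, and 0.11, 1.57 and 0.968 on plate 2. Set against *H3f3a*, *H3f3b*, *H1f0* and *H1f10* alone the ratios were 0.139, 1.48 and 0.845, and 0.116, 1.67 and 1.01. The mean log2 ratio of S to G1 over the plates was 3.77 ± 0.13 (SD, n = 2) for the Hist sum and 0.15 ± 0.17 for the variant sum. These sums are descriptions with no test.

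High and low PLIN2-GFP NSPCs differed in 1 of the 8 tested members, beside 0.886% of 8348 tested genes higher and 1.26% lower in high cells. *Hist1h2ap* was higher in high cells, at 706 CPM in low and 1227 CPM in high cells of plate 1 and 1248 and 1464 CPM on plate 2 (log2 fold change 0.50 ± 0.08, adjusted p = 6.34e-07). *Hist1h2ao* had 545 and 889 CPM on plate 1 and 1049 and 960 CPM on plate 2, and did not pass (0.27 ± 0.09, adjusted p = 0.105). The values of the 2 H2A genes differed in 9 cells, 7 of them high, so the gap between their results rests on these cells. Added up, the genes had 1251 and 2116 CPM in low and high cells of plate 1, 1.69-fold, and 2297 and 2423 CPM on plate 2, 1.05-fold. As 1 row they differed by 0.41 ± 0.07 on the log2 scale (adjusted p = 8.25e-06). That p-value and the one of *Hist1h2ap* rest on the borrowed spread, not on the distance between the plates' own ratios. The low cells of plate 1 stood below the other 3 sums, which lay within 2116 and 2423 CPM. The median cell of plate 1 did not follow its sum, with 4.09 UMIs of both genes per 10000 in low and 3.80 in high cells, and the 9 highest of 95 low and the 8 highest of 84 high cells held 67.6% and 45.8% of the UMIs of these genes. On plate 2 the medians were 4.02 in low and 10.3 in high cells, where the sums differed by 1.05-fold.

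That difference changed with the sums and the fit used, and was called in 10 of 16 alternative fits. With 1 of the 4 sums left out, 1 category is a single sum, the plate block had to be dropped too, and the lone sum is assumed to vary like the others. Without the low cells of plate 1 the log2 fold change of *Hist1h2ap* was 0.11 (adjusted p = 0.996), without the high cells of plate 1 it was 0.58 (adjusted p = 0.638), without the high cells of plate 2 it was 0.33 (adjusted p = 1.00), and without the low cells of plate 2 it was 0.93 (adjusted p = 0.0316). A fit of all 4 sums without the plate block gave 0.46 (adjusted p = 0.996). DESeq2 gave 0.51 with an adjusted p of 0.526. With phase as a term it was 0.32 (adjusted p = 0.0833), and among G1 cells alone it was 0.24 (adjusted p = 0.855). High cells were less often labelled G1 than low cells, with 38.1% against 51.6% on plate 1 and 37.7% against 43.1% on plate 2. The proliferation markers *Mki67*, *Top2a* and *Pcna*, all 3 counted, had a summed level of 827 and 1073 CPM in low and 1178 and 1158 CPM in high cells of plates 1 and 2. *Pcna* alone went the other way on plate 2, with 432.3 CPM in low and 357.6 CPM in high cells. The fit with phase as a term takes account of the 3 phase labels only. The parts of position within a phase and of the well rows in the difference were not tested.

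Within phases the 2 plates did not move alike. In G1 the summed level of *Hist1h2ap* and *Hist1h2ao* was 296.9 CPM in low and 290.6 CPM in high cells of plate 1, and 222.9 and 349.8 CPM on plate 2. In S it was 3348 and 3826 CPM on plate 1 and 4217 and 3599 CPM on plate 2, in opposite directions. In G2/M it was 1427 and 2718 CPM on plate 1 and 2624 and 3184 CPM on plate 2, higher in high cells on both. The G2/M medians per 10000 UMIs of a cell were 6.42 in low and 6.79 in high cells of plate 1, where the 2 highest of 25 low and the 3 highest of 32 high cells held 46.8% and 37.9% of the UMIs, and 5.30 and 28.1 on plate 2. The G2/M low cells of plate 1 thus had the lowest sum outside G1. The interaction of phase and category, tested in edgeR, called 0 of the 8 tested members, beside 0.0487% of 6163 genes. At an unadjusted p under 0.05 it had 2 members, *Hist1h2ao* (adjusted p = 0.416) and *H1f0* (adjusted p = 0.435), beside 5.4% of all 6163 genes.

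**Figure D4:**
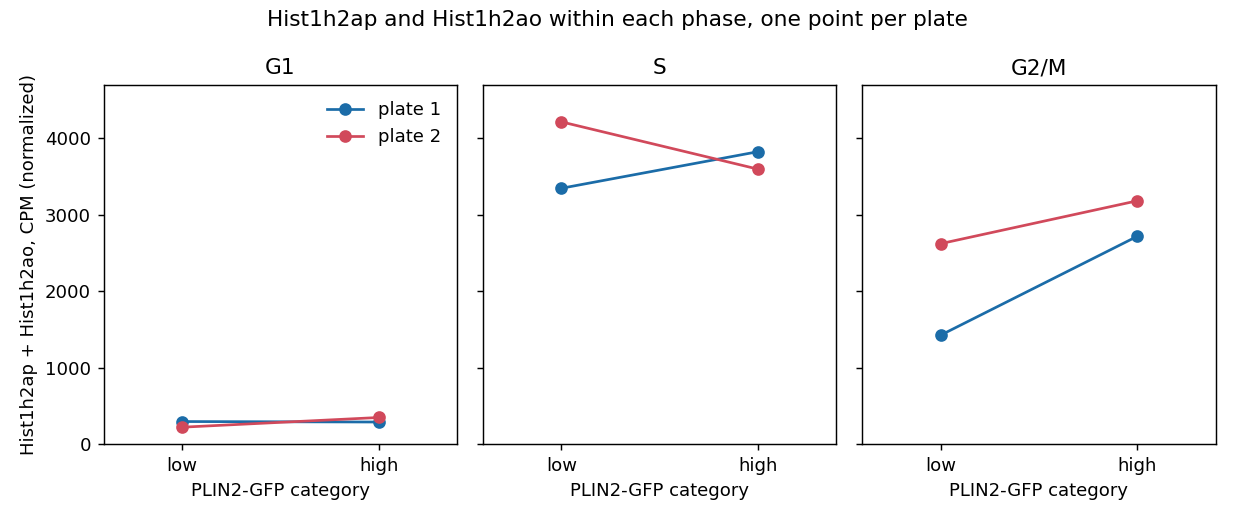
Summed normalized level of *Hist1h2ap* and *Hist1h2ao* (y axis, CPM) in low and high PLIN2-GFP NSPCs (x axis) for each phase, with 1 line per plate. In G1 all 4 sums lie between 222.9 and 349.8 CPM, in S the plates go in opposite directions, and in G2/M both are higher in high cells.

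The other members had no detectable difference between the categories. *H1f4* had 10.5 CPM in low and 22.4 CPM in high cells of plate 1 and 19.4 and 36 CPM on plate 2, and did not pass (log2 fold change 0.96 ± 0.37, adjusted p = 0.230). Its 2 high values exceeded the low value of their own plate. *H3f3a* had 1265 and 1110 CPM and 1297 and 1185 CPM (-0.16 ± 0.08, adjusted p = 0.426), and *H3f3b* had 923 and 902 CPM and 1095 and 917 CPM (-0.14 ± 0.08, adjusted p = 0.548). *H1f0*, *H1f2* and *H1f10* had log2 fold changes of 0.14 ± 0.16, 0.13 ± 0.19 and 0.16 ± 0.22. Of 6 tested H2ac, H2bc and H4c genes outside the rule, 1 was called, beside 0.886% of all tested genes higher and 1.26% lower. Their median log2 fold change was -0.10. *H2bc4*, *H4c9* and *H2ac11* were at -0.44, -0.46 and -0.54, and *H2ac20* and *H2ac15* at 1.37 and 0.23. None of these passed. The called gene was *H2ac8*, higher in high cells, with 7.89 and 30.1 CPM on plate 1 and 26.7 and 50.2 CPM on plate 2 (1.23 ± 0.34, adjusted p = 0.0248). Of the values of *H2ac8* above 0, 92.6% were not whole numbers, so its counts are uncertain too.

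**Figure D5:**
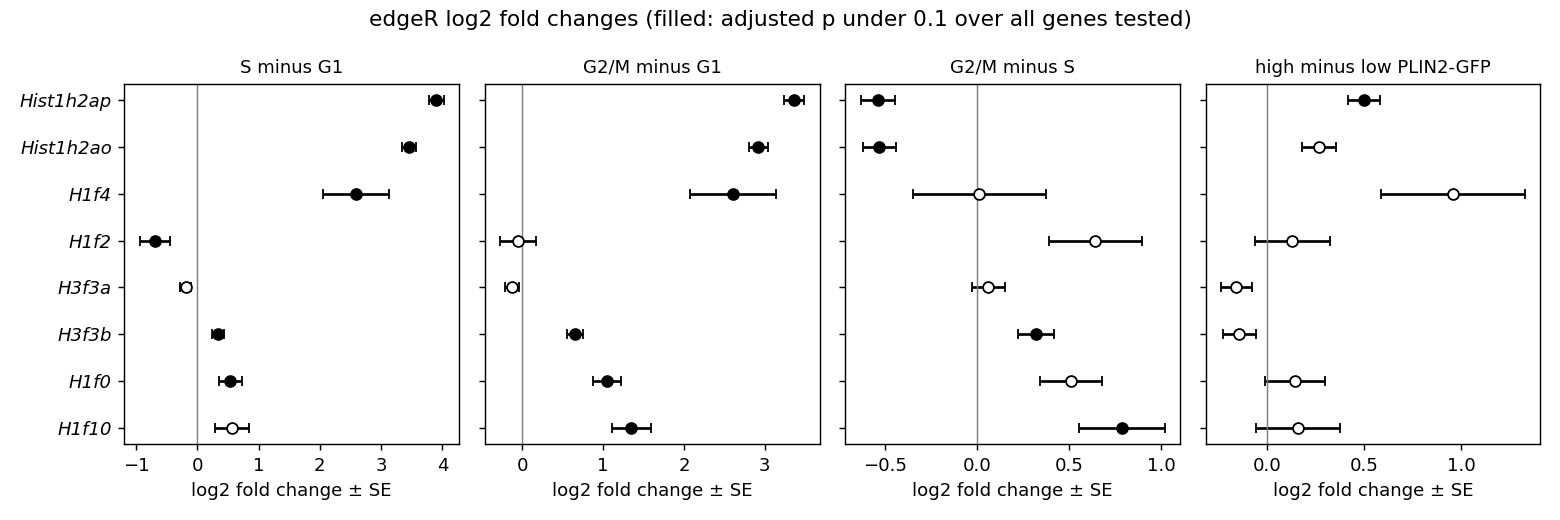
edgeR log2 fold changes with their standard errors (x axes) of the 8 tested members (rows) in the 3 phase contrasts and between high and low PLIN2-GFP. Filled points have an adjusted p under 0.1; *Hist1h2ap* and *Hist1h2ao* lie above 3.4 for S minus G1 and near -0.54 for G2/M minus S, and *Hist1h2ap* is the 1 filled point for high minus low.

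The authors' 2 clusters, made after regressing out the phase, are described without a test. *Hist1h2ap* and *Hist1h2ao* together had 2153 CPM in cluster 0 and 1250 CPM in cluster 1 of plate 1 and 2514 and 2078 CPM on plate 2. Phase shares by cluster differed little, with G1 at 44.6% and 46% on plate 1 and 42.9% and 38.7% on plate 2. In G2/M cells the pair had 3226 CPM in cluster 0 and 993 CPM in cluster 1 of plate 1 and 3039 and 2453 CPM on plate 2. *H3f3b* was slightly lower in cluster 0 on both plates (872 against 909 CPM and 923 against 1061 CPM), and *H1f0* had 146.3 and 159.8 CPM and 137.2 and 139.3 CPM.

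Histone genes outside the rule give a comparison for both classes. They were added after the symbols were seen. Of 35, 11 passed the filter in the phase fit, and 3 were higher and 1 lower in S than in G1, and 6 higher and 0 lower in G2/M than in G1. Over all tested genes 7.56% were higher and 5.19% lower in S, and 9.01% higher and 7.4% lower in G2/M. *H2az1*, a gene of the variant H2A.Z, had 852, 1291 and 1968 CPM in G1, S and G2/M on plate 1 and 1423, 1486 and 2520 CPM on plate 2, and its log2 fold change for G2/M against S was 0.69 ± 0.09 (adjusted p = 8.76e-06). *H2ax*, the H2A variant phosphorylated at DNA breaks, had 63.1, 160.6 and 530.3 CPM and 131.1, 164.7 and 670.3 CPM (1.90 ± 0.16 for G2/M against S, adjusted p = 1.08e-09). Both had the order of *H1f0* and *H1f10*. *H2ac15*, an H2A gene of the cluster, had 1.37, 57.2 and 32.3 CPM on plate 1 and 0, 48 and 47.2 CPM on plate 2 (adjusted p = 1.27e-06 for S against G1). Like *H1f4*, *H2ac15* passed the filter only through its S and G2/M sums, so this test is not independent of the filter. Of the values of *H2ac15* above 0, 98.4% were not whole numbers, so its counts are uncertain like those of *H3f3a*. *H2bc4*, an H2B gene of the cluster, was lower in S, with 105.6 CPM in G1 and 61.6 CPM in S on plate 1 and 67.6 and 32.6 CPM on plate 2 (-0.89 ± 0.26, adjusted p = 0.0271). It moved in the direction of *H1f2* and not of *Hist1h2ap*.

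Genes that act on histones were described by 3 lists. Of 16 genes for the transcription and 3′ processing of histone mRNA, 14 were tested and 5 were higher in S than in G1, beside 7.56% of all tested genes. In G2/M against G1 0 were called, beside 9.01% of all tested genes higher and 7.4% lower. The median log2 fold change of the tested genes was 0.58 in S, against -0.03 over all genes. Those higher included *Npat*, an activator of histone gene transcription (log2 fold change 0.88 ± 0.32, adjusted p = 0.0919), *Eri1*, an exonuclease of histone mRNA ends (0.82 ± 0.23, adjusted p = 0.0246), and *Ncbp1*, a cap-binding protein (1.20 ± 0.36, adjusted p = 0.032). *Casp8ap2*, an NPAT partner (1.73 ± 0.39, adjusted p = 0.00396), is itself on the list from which S scores are made. *Slbp*, named after its values were seen because it binds the stem-loop, is on that list too and did not pass (0.58 ± 0.60, adjusted p = 0.642). Without the 2 scored genes, 4 of 12 were higher in S.

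Of 23 histone chaperones and import factors, 22 were tested, 11 were higher in S and 12 in G2/M than in G1, and 1 was lower in G2/M. Over all tested genes 7.56% were higher in S and 9.01% in G2/M, and 7.4% were lower in G2/M. Their median log2 fold change was 0.57 in S and 0.62 in G2/M, against -0.03 and -0.01 over all genes. *Dek*, a chromatin protein and histone chaperone, gave log2 fold changes of 1.77 ± 0.14 in S (adjusted p = 4.55e-10) and 1.68 ± 0.14 in G2/M (adjusted p = 3.86e-10). *Hat1*, which acetylates new H4, gave 1.41 ± 0.17 (adjusted p = 1.00e-06) and 1.10 ± 0.18 (adjusted p = 3.81e-05). *Nasp* and *Mcm2*, a chaperone and a helicase subunit that binds H3 and H4, rose by 2.04 ± 0.18 and 1.49 ± 0.21 in S, and both are scored genes. Without the 5 scored genes, 7 of 17 were higher in S and 8 in G2/M. Of 9 remodeller genes, 7 were tested, and *Smarca5*, a remodelling ATPase, was higher in S (0.49 ± 0.13, adjusted p = 0.0158) and, with *Ruvbl2*, in G2/M. Between high and low PLIN2-GFP cells edgeR called 0 genes of the 3 lists, beside 0.886% of all 8348 genes higher and 1.26% lower. At an unadjusted p under 0.05 it had 4 of 23 chaperone genes and 0 of the other lists, beside 11% of all 8348 genes. The median log2 fold changes were 0.04, 0.07 and -0.11 in the order given, against -0.00146 over all genes.

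Promoter windows of 3 tested members are shown because they differ in kind: an H2A gene with its top in S, a linker gene of the cluster and a replication-independent gene. Each runs from 250 bases before to 50 after the RefSeq start on GRCm38.p6, at chr13:21833426-21833725 for *Hist1h2ap*, chr13:23622509-23622808 for *H1f4* and chr11:116024455-116024754 for *H3f3b*, all on the minus strand. Capitals mark the CCAAT box (CCAAT), the TATA box (TATAAA) and the H1 box (AAACACA), searched on both strands, and no match overlapped another.
Hist1h2ap: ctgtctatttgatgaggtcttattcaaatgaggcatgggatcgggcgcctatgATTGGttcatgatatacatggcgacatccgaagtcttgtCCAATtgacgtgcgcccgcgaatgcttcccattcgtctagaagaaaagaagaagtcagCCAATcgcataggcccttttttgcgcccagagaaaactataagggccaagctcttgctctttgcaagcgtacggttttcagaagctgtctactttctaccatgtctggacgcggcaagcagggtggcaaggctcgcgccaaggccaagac
H1f4: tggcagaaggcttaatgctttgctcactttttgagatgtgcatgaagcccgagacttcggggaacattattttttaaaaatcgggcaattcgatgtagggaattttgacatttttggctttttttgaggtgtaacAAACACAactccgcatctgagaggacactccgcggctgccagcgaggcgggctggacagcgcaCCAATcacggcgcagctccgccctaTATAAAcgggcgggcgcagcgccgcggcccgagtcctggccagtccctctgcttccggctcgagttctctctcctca
H3f3b: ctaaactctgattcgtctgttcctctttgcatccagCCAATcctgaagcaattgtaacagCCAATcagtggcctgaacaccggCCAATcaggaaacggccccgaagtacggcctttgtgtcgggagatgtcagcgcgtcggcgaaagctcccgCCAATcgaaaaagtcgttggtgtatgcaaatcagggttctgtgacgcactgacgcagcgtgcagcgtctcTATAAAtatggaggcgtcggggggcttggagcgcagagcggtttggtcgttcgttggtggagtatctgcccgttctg
Of 15 members with a window, 13 held CCAAT, against 37.4% of 32851 promoters of the same length, 7 held TATAAA against 13.6%, and 5 held AAACACA against 7.18%. These windows are not all separate, since 6 of the 15 belong to head-to-head pairs whose windows overlap, so that the same CCAAT can count for both genes. AAACACA was found in *H1f2*, *H1f3*, *H1f4*, *H1f5* and *H3f3a*. *Hist1h2ap* and *Hist1h2ao* had 3 CCAAT each, *H3f3b* had 4, and *H1f0* and *H1f10*, with 75% and 77.7% G and C, had none of the 3 motifs. *H1f2*, which was lower in S, and *H1f4*, which was higher, each held 1 CCAAT and 1 AAACACA, and they differed in TATAAA, with 0 in *H1f2* and 1 in *H1f4*. The motif AAACACA was chosen after the sequences were seen, and a match is a description of letters, not of binding.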

How the data were processed

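SORT-seq was run on 2 plates of sorted PLIN2-GFP NSPCs, which gave 304 cells. According to the methods and the submitters' processing notes, the authors assigned reads of 60 bases to GRCm38 with Salmon and its single-cell tool alevin, and the versions and the gene annotation release are not given in the sources used here. The authors deposited estimated counts (expected counts) of UMIs per gene and cell, with no normalization. Reads that fit several genes are shared out, so values of near-identical genes can be parts of a UMI. *Hist1h2ap* or *Hist1h2ao* had a count in 263 cells, in 254 of which both were equal within 0.001. The authors also deposited per cell the total count and the count of genes, the mitochondrial percent, an S score and a G2/M score, and the phase, category and cluster. The methods state a limit of 20% mitochondrial counts, and 11 of the deposited cells were at or above it.

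Count columns carry no cell names and were joined to cells by equal total and number of genes, which is unique for all 304 cells; 0 columns stayed unjoined. Of 245 well barcodes, 59 occurred on both plates. UMIs were summed per plate and category (4 sums), plate and phase (6 sums) or all 3 (12 sums) and rounded. Sums were fitted in edgeR 4.0.16 (R 4.3.3) with TMM factors and filterByExpr, the plate entering as a blocking term, and tested by quasi-likelihood, with 1 residual degree of freedom for the categories and 2 for the phases. CPM use the same factors, and class sums use the UMI total. Standard errors were taken from the fold change and F (its size over the root of F). Plates pair the sums, since both categories and all phases of a number come from the same plate (correlation of deviations 0.300 over 8348 genes). The 4 sums of plate and category held 778022 to 1029023 UMIs. The fit was also run on simulated counts with a fixed dispersion and no plate effect, unlike the data. Of 50 genes changed 1.5-fold it recovered 25 between the categories and 13 between S and G1. Of 50 genes changed 4-fold it recovered 50 and 47. False calls were 20 among 8290 genes and 17 among 7538. Alternatives were DESeq2 1.42.0, limma 3.58.1 (voom), other scalings, filters, thinning to 5000 UMIs, whole UMIs, subsets of cells and left-out sums.

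Genes were named by a rule: variant genes with 50 or more UMIs, all 7 Hist genes (the rule allowed up to 12), further called members, and up to 4 called genes per list and contrast. The members and lists were chosen with earlier results of these data known. Sites were read from GENCODE M21 transcripts and promoters from RefSeq, both on GRCm38. Sequences of the encoded proteins were not used here.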

Additional observations from a re-analysis of the deposited data

How the results depend on the processing

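Of the 8 members tested, 1 was called between high and low PLIN2-GFP cells. The number called was 0 without the replicate block, with DESeq2 and among G1 cells, 2 with library size only, RLE size factors, no filter, a filter of at least 10 counts in every sum or whole UMIs, and 0 to 1 when a sum was left out, which also drops the plate block and leaves a category with 1 sum. The number called between S and G1 was 6, and 3 without the replicate block or among low cells, and 2 with DESeq2 or after thinning. Between G2/M and S it was 4, and 1 without the replicate block or among high cells, and 2 with DESeq2 or an adjusted p under 0.05. Between G2/M and G1 it was 6 and stayed within 1.5 times of that in all 15 alternatives. The causes of these moves were not tested, except that thinning and subsets hold fewer UMIs. Adding *Hist1h2ap* and *Hist1h2ao* into 1 row was chosen after seeing the data.

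Direction changed in these fits. Between high and low cells, with 1 of the 4 sums left out at a time and the plate block dropped with it, *H1f10* ranged from -0.14 to 0.56, *Hist1h2ao* from -0.18 to 0.76 and *H1f2* from -0.039 to 0.29 on the log2 scale. *H1f2* was at -0.34 after thinning and *H1f0* at -0.016 among G1 cells. *H1f0* was at -0.12 for S against G1 among low cells and -0.045 for G2/M against S among high cells. *H1f2* was at 0.04 for G2/M against G1 among high cells. *H1f4* was at -0.023 without the replicate block and -0.03 with library size only for G2/M against S.

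The log2 ratio of the summed Hist genes was 3.77 for S and 3.20 for G2/M against G1, and 4.07 and 3.50 with whole UMIs, 3.99 and 3.48 after thinning, and 3.50 for S without *Hist1h2ap*. That of the summed variant genes was 0.15, 0.34 and 0.19 for S and G2/M against G1 and G2/M against S, and 0.43, 0.75 and 0.33 without *H3f3a*. Leaving out a plate gives values of the remaining plate with no test, between 3.68 and 3.86 for the Hist sum in S against G1, and no count of called genes. Depth limits *H1f1*, *H1f3*, *H1f5* and the 5 sparse Hist genes, which had under 30 UMIs each.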
